A study of Rattus norvegicus with 10 samples.

Results

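Transcripts of amino acid supply, tRNA charging and the transcription factor Atf4 were followed in the paraventricular nucleus of the rat hypothalamus after water deprivation. The members were 51 genes chosen by function in 4 roles: 9 genes of Atf4 and its stress partners, 19 aminoacyl-tRNA synthetases of the cytosol, 10 enzymes that make amino acids or one-carbon units, and 13 amino acid carriers of the cell membrane. A member was measured through the probe sets annotated with its symbol alone, current or former, and the probe set with the highest mean over all arrays stood for the gene. This gave 50 of the 51 members, out of 14217 genes with such a probe set on the array. Pycr1 had no probe set with its symbol alone and was not analysed here.

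There were 5 RNA pools from male Sprague Dawley rats dehydrated for 3 days, and 5 pools from control rats of the same strain, sex and age, 10 to 12 weeks. Each pool held nuclei of 5 animals and was hybridised to its own Affymetrix array (Rat Genome 230 2.0), 50 animals in all, and the labels describe separate animals for every pool. Series title and sample labels name the paraventricular nucleus, although the design text speaks of the supraoptic nucleus once. Vasopressin, oxytocin, Crh, Trh and Sim1, used here as markers of the paraventricular nucleus, had a signal in every pool. The probe set of the lineage factor Otp was too dim to test. Whether these markers tell the paraventricular from the supraoptic nucleus was not tested.

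Atf4 is the effector of the integrated stress response. When amino acids run short or the endoplasmic reticulum is loaded, kinases phosphorylate the initiation factor eIF2, most translation slows, and translation of the Atf4 mRNA itself increases. Atf4 then switches on genes for amino acid import, amino acid synthesis and tRNA charging, so that its targets serve the supply side of protein synthesis. The magnocellular neurons of this nucleus make large amounts of peptide hormone precursor when the animal is short of water.

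Many Atf4 targets carry a C/EBP-ATF response element near the gene start. The short form TGATGNAA, where N is any base, was searched on both strands of the RefSeq promoter windows (build GRCr8), which run from 250 bases before to 50 after the gene start. Of the 43 members with such a window, 13 held it, or 30.2%, against 4.16% of all 27457 genes with a window and 2.15% of the 8753 of them tested on the arrays. The variant TGATGCAA was in 25.6% of the members with a window, against 0.827% of all genes. Several members are known Atf4 targets and were listed for that reason, so these shares describe the list and test nothing. The windows of the 3 genes that passed the array test are shown in full, in the direction of the gene, with matches in capitals. That of Atf4 (chr7:113684431-113684730, plus strand) had no match, that of Cars1 (chr1:208225320-208225619, minus strand) and that of Slc7a1 (chr12:11664238-11664537, plus strand) had 1 each.
Atf4: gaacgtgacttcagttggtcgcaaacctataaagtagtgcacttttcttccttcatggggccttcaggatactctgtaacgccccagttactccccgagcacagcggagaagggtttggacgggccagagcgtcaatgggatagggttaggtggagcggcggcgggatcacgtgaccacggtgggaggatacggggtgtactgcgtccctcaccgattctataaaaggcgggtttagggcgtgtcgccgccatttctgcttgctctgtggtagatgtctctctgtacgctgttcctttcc
Cars1: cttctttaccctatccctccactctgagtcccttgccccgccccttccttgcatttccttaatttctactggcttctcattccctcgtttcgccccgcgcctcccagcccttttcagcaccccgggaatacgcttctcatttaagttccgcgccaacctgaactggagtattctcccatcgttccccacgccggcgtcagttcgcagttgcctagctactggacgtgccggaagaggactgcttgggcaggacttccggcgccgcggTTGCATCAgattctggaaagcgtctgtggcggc
Slc7a1: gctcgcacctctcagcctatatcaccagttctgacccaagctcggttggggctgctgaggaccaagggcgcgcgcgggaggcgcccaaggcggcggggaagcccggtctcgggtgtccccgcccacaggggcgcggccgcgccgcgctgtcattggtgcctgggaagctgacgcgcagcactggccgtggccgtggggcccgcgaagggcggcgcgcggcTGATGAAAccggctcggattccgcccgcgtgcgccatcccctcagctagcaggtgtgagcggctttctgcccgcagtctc

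The matches of 12 of the 13 genes are set under each other to show that their flanks differ. Each is printed 5′ to 3′ on the strand that reads TGATGNAA, with the match in capitals and up to 10 bases on either side.
Slc7a1: ggcgcgcggcTGATGAAAccggctcgga
Cars1: ttccagaatcTGATGCAAccgcggcgcc
Iars1: cgtctggaggTGATGCAAtactgacagt
Tars1: gctaaccagcTGATGCAAcgggacgcca
Mars1: gagcccacgcTGATGCAAccggaacggg
Slc38a1: ggggaaactcTGATGCAAccaaccagtc
Slc1a4: gctggctggaTGATGCAAcgctggaggc
Yars1: cgagctcagcTGATGCAAcctg
Nars1: ctaggtgatcTGATGCAAcgcttcagtc
Got1: gaggcttgtaTGATGCAAccaatgcagt
Pycr1: gtcctgtgtaTGATGCAAtgtacaaggc
Trib3: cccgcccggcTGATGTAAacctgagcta

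Synthetases held 7 of the 13 genes, from 17 with a window. Counted along the gene, the first base of the match lay 30 bases before the gene start in Slc7a1, on the strand of the gene, and 18 bases after it in Cars1, on the other strand. Iars1, Tars1, Mars1, Nars1 and Trib3 had it 14 to 27 bases before the start. Members without a match, among them Asns and Phgdh, lack only these letters in this window, and 8 members had no window in the table.

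**Figure D1:**
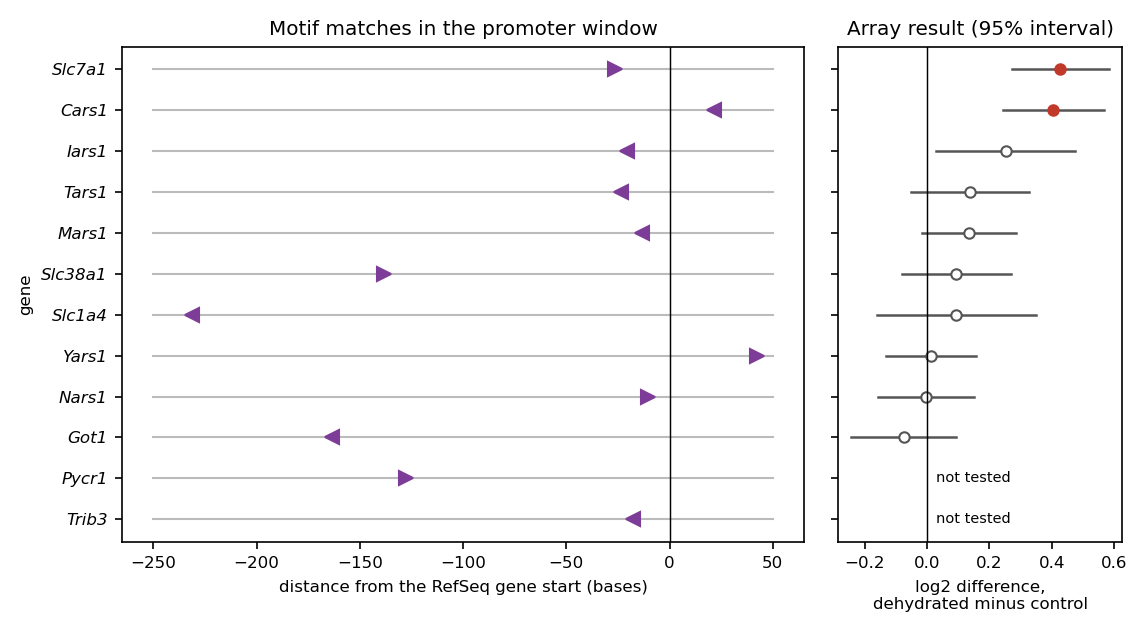
Left, positions of TGATGNAA in the promoter windows of 12 of the 13 members that held it, in bases from the RefSeq gene start, with arrowheads to the right for matches on the gene's strand. Right, log2 difference on the arrays, dehydrated minus control, of the 10 of them that were tested (Pycr1 and Trib3 were not), with the 95% interval of the fit and filled points where the adjusted p was under 0.05. Slc7a1 and Cars1 lie at the top with 0.43 and 0.41, and Nars1 and Yars1, which also hold the motif, lie near zero.

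Values are linear probe set signals as the authors deposited them, scaled to a common level per array, and they allow comparison of pools but not of genes. Differences were taken on the scale log2(signal + 3.72), dehydrated minus control, where 3.72 is a pseudocount, and tested with limma on the 18629 probe sets that reached the 40th percentile of mean signal. Adjusted p are from that fit, after Benjamini-Hochberg over all 18629, errors are SD over the 5 pools of a group for signals and standard errors for differences. The trimmed mean signal was 100.03 on every array and array medians ran from 36.4 to 39.1. Control replicate 5 stood apart, with a score of 37.2 on the first principal component against -14.4 to 3.69 for the others and the lowest array weight, 0.385. Its array title is also out of sequence with those of the other 4 controls, which run on from each other, and what that numbering stands for is not given in the sources used here.

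Of the 50 members, 46 passed the filter. The other 4, the stress factors Trib3 and Atf3, the cytosolic serine hydroxymethyltransferase Shmt1 and the transporter Slc7a7, had mean signals of 13.96, 8.0, 17.1 and 19.3, under the minimum of 24.1. In dehydrated pools 3 members rose, Slc7a1, Atf4 and Cars1, 1 in each of 3 roles, and 0 fell. That is 6.52% of the members tested, against 0.397% of all probe sets called higher, and the lists were chosen with Atf4 known to be among the calls. Here and below, members count by 1 probe set per gene, that with the highest mean. The background counts every probe set tested, dim and further ones included. Before adjustment, p was under 0.05 for 17 of the 46 (37.0%), 15 of them higher, against 12.7% of all probe sets. The groups did not overlap for 10 of the 46 (21.7%), 8 with all dehydrated pools above and 2 with all below the controls, against 3.36% of all probe sets (1.94% above and 1.42% below). The median log2 difference of the 46 was 0.09 and 34 were positive (73.9%), where 48.8% of all probe sets were positive and their median was -0.0048.

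**Figure D2:**
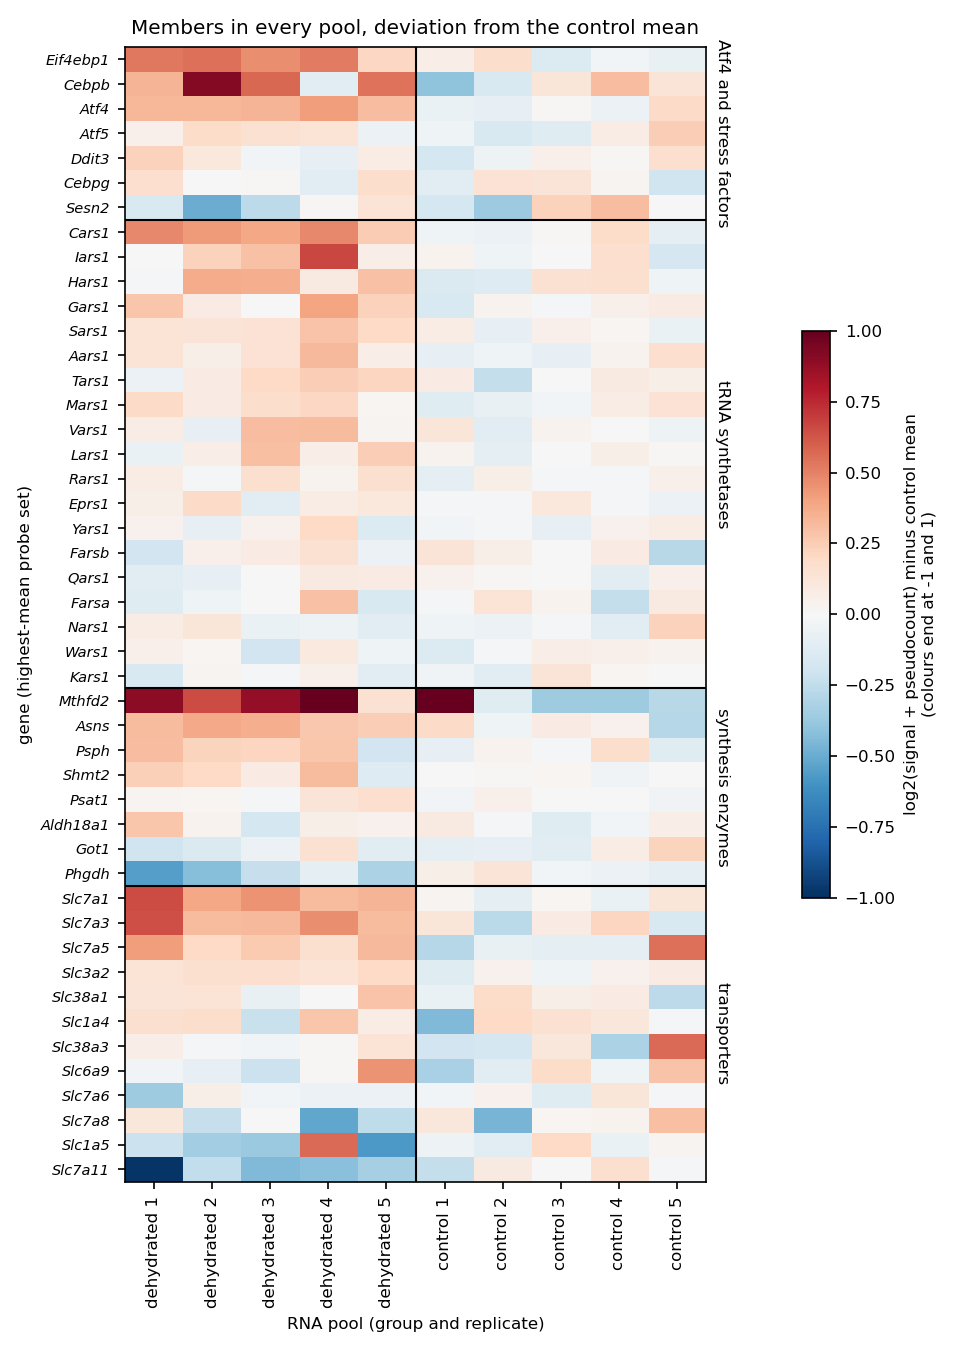
Deviation of each of the 46 tested members from its control mean in every pool, on the log2(signal + pseudocount) scale, with dehydrated pools on the left, control pools on the right and genes sorted within their role. Rows that are red in all 5 dehydrated pools include Eif4ebp1, Atf4, Cars1, Asns, Slc7a1 and Slc7a3, while Phgdh and Slc7a11 are blue in all 5, and single red control cells stand out for Mthfd2 in replicate 1 and for Slc7a5 and Slc38a3 in replicate 5.

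Atf4 was higher in every dehydrated pool. It had signals of 787, 788, 792, 836 and 775 in the dehydrated pools, against 597, 589, 631, 601 and 715 in the control pools. All 5 dehydrated values lay above the highest control, which was control replicate 5. Means were 795 ± 23.4 in dehydrated and 627 ± 52.1 in control pools (SD, n = 5 each), which on the log2 scale differed by 0.35 ± 0.06 or 27.1% (adjusted p = 0.0146). The call was lost without dehydrated replicate 4 (adjusted p = 0.0538), control replicate 1 (0.0508) or control replicate 2 (0.0518), and in a fit without the variance trend (0.0951). In a whole nucleus, more cells of a type and more RNA per cell cannot be told apart, here and for every gene below.

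The translational repressor gene Eif4ebp1, whose product holds back the cap-binding factor, had signals of 85.7, 87.2, 81.7, 85.2 and 67.9 in the dehydrated pools, against 61.1, 66.2, 52.5, 57 and 55.2 in the control pools. The groups did not overlap, and the log2 difference was 0.46 ± 0.11, short of the threshold (adjusted p = 0.065). It passed without dehydrated replicate 5, the lowest of its group, and with array weights (adjusted p = 0.0462 in both). Cebpb, a partner of Atf4 on DNA, had signals of 65.8, 99.9, 78.2, 47 and 76.2 in the dehydrated pools, against 37.8, 45.7, 56.1, 64.2 and 56.2 in the control pools. In all, 4 dehydrated pools lay above all controls and dehydrated replicate 4 lay among them, with a log2 difference of 0.45 ± 0.17 (adjusted p = 0.288).

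The other stress genes did not pass the test. Sesn2, a leucine sensor that restrains the growth kinase complex mTORC1, had signals of 86.7, 67.5, 79.8, 97.5 and 106 in the dehydrated pools, against 84.9, 74.3, 114, 121 and 96.4 in the control pools, which overlapped throughout (log2 -0.15 ± 0.14, adjusted p = 0.69). Its difference was -0.07 without dehydrated replicate 2, -0.24 without control replicate 2, -0.09 without control replicate 3 and -0.07 without control replicate 4. The stress-induced factor gene Ddit3, which Atf4 activates when the unfolded protein response is strong, differed by 0.06 ± 0.08 with an interval of -0.12 to 0.24 (adjusted p = 0.807). Atf5 and Cebpg, which encode related leucine zipper factors, differed by 0.09 ± 0.09 and 0.05 ± 0.09. Trib3, a pseudokinase gene downstream of Atf4 and Ddit3, was listed at 13.1 to 20.9 in dehydrated and 5.70 to 16.8 in control pools on its brightest probe set, all under the mean signal needed for a test. Of the 7 stress genes tested 1 rose and 6 did not pass, and the median log2 difference was 0.09.

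**Figure D3:**
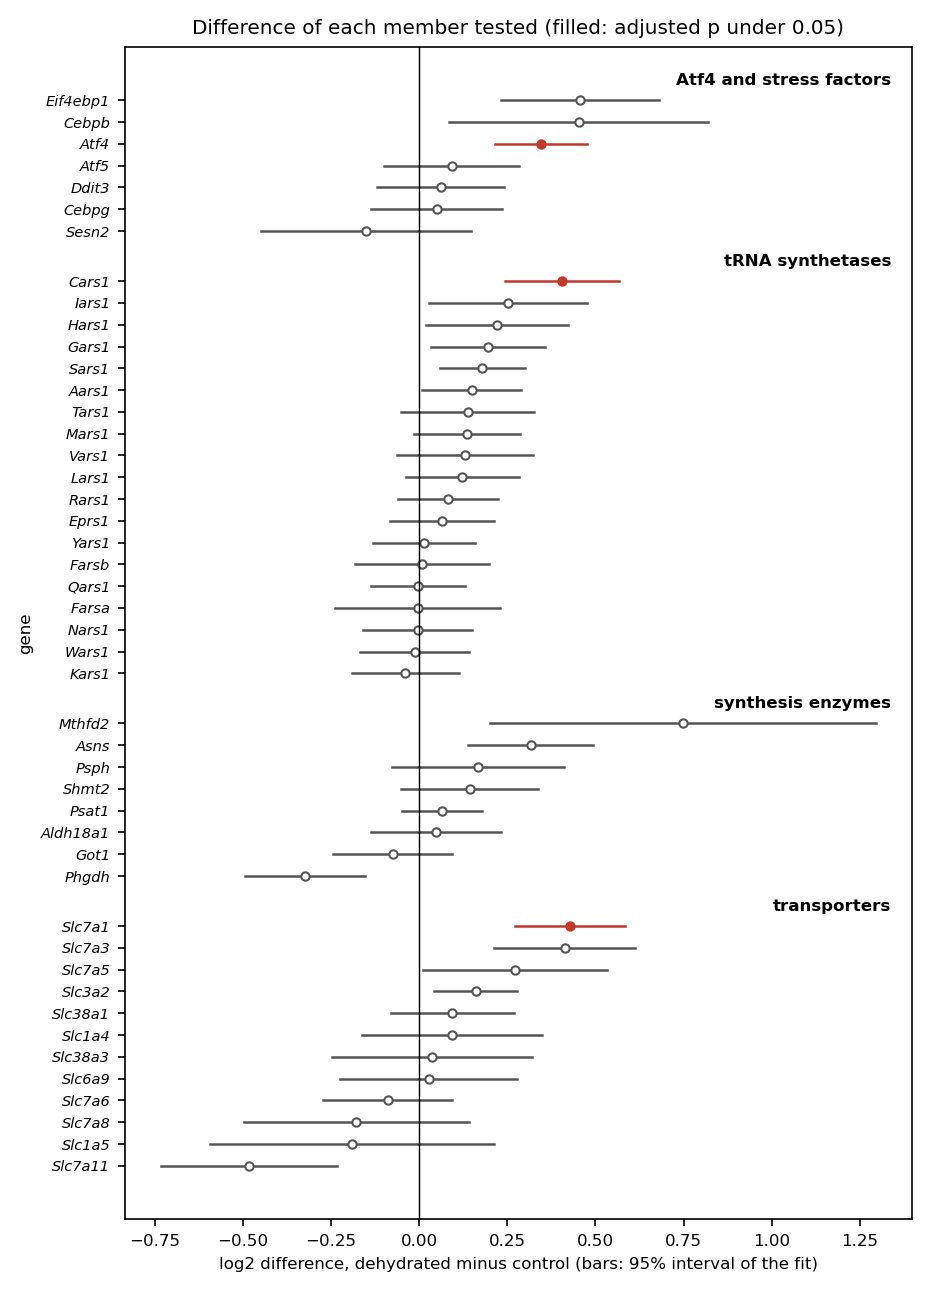
Log2 difference, dehydrated minus control, of the 46 tested members by role, with the 95% interval of the fit as bars and filled points for an adjusted p under 0.05. Atf4, Cars1 and Slc7a1 are filled, the intervals of Phgdh and Slc7a11 lie wholly below the zero line, and that of Mthfd2 is the widest, from 0.20 to 1.30.

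Among the synthetases, which join each amino acid to its tRNA, the cysteine enzyme gene Cars1 rose. Its signals were 249, 239, 233, 248 and 212 in the dehydrated pools, against 171, 170.0, 179, 202 and 166 in the control pools. Every dehydrated value was above the highest control, and means were 236 ± 15.1 in dehydrated and 178 ± 14.4 in control pools (SD, n = 5 each), which on the log2 scale differed by 0.41 ± 0.08 or 32.4% (adjusted p = 0.0235). The 2 further probe sets of Cars1 that passed the filter pointed the same way, with 0.35 ± 0.09 (adjusted p = 0.102) and 0.33 ± 0.14 (adjusted p = 0.348), and in both the groups overlapped. The call did not survive the removal of any of 6 arrays: dehydrated replicate 1 (adjusted p = 0.0647), 3 (0.0601) or 4 (0.0773), or control replicate 1 (0.0608), 2 (0.0744) or 3 (0.0571). It was also lost without the variance trend (0.0748).

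The serine enzyme gene Sars1 had signals of 657, 654, 659, 727 and 684 in the dehydrated pools, against 629.6, 563, 618, 605 and 569 in the control pools. Its groups did not overlap, at a log2 difference of 0.18 ± 0.06 that did not pass (adjusted p = 0.202). Gars1, for glycine, had signals of 598, 521, 491, 647 and 579 in the dehydrated pools, against 442, 506, 488, 509.7 and 521 in the control pools. The highest 3 of these were dehydrated pools, and the lowest was a control (log2 0.20 ± 0.08, adjusted p = 0.297). Iars1, for isoleucine, had signals of 303, 355, 371, 483 and 317 in the dehydrated pools, against 309.5, 294, 303, 341 and 269 in the control pools. Dehydrated replicate 4 stood highest by far, and dehydrated replicates 1 and 5 lay within the controls. The log2 difference was 0.25 ± 0.11 (adjusted p = 0.334), and 0.15 without dehydrated replicate 4.

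The other 15 synthetase genes differed by -0.04 to 0.22 on the log2 scale. At the upper end were Hars1, for histidine (0.22 ± 0.09, adjusted p = 0.352), and Aars1, for alanine (0.15 ± 0.07, adjusted p = 0.371). Tars1, Mars1, Vars1 and Lars1, for threonine, methionine, valine and leucine, differed by 0.14, 0.13, 0.13 and 0.12. At the lower end Nars1, Qars1, Farsa, Wars1 and Kars1, for asparagine, glutamine, phenylalanine, tryptophan and lysine, lay between -0.04 and 0.00. Their intervals were narrow: that of Qars1 ran from -0.14 to 0.13 and that of Kars1 from -0.19 to 0.11, so that a difference as large as that of Cars1 lay outside both. In all, 1 of 19 synthetase genes rose, 18 did not pass, 14 were positive, and the median log2 difference was 0.12. The 7 genes whose products sit together in the multi-synthetase complex (Eprs1, Iars1, Kars1, Lars1, Mars1, Qars1, Rars1) had a median of 0.08 with 0 calls, and the 12 outside it 0.13 with 1, a grouping made after the values were seen. Of the complex, Iars1 had an unadjusted p under 0.05, as did 5 of the 12 others, against 12.7% of all probe sets.

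The enzymes of synthesis lay on both sides of zero, and 0 of 8 passed in limma. Of the 8, 3 had an unadjusted p under 0.05 (37.5%, against 12.7% of all probe sets). Asns, which makes asparagine and is a classic Atf4 target, had signals of 271, 283, 279.5, 261 and 257 in the dehydrated pools, against 248, 210.1, 229.8, 224 and 177 in the control pools. All dehydrated pools were above all controls, the log2 difference was 0.32 ± 0.08 with an interval of 0.14 to 0.49, and the adjusted p was 0.108. Phgdh, which takes the first step from glycolysis to serine, ran the other way. It had signals of 326, 357, 408, 447 and 384 in the dehydrated pools, against 499, 525, 469, 459 and 448 in the control pools, and here all dehydrated pools were below all controls, although dehydrated replicate 4 and control replicate 5 nearly touched (log2 -0.32 ± 0.08, adjusted p = 0.0859). The next enzymes of the serine pathway, Psat1 and Psph, differed by 0.06 ± 0.05 and 0.17 ± 0.12.

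Mthfd2, an enzyme of the mitochondrial folate pathway, had signals of 48.3, 40.2, 47.7, 59.2 and 27.3 in the dehydrated pools, against 56.6, 22, 18.1, 18.2 and 19.4 in the control pools. Control replicate 1 was as high as the dehydrated pools and the other 4 controls were below all of them. The log2 difference was 0.75 ± 0.26 with all pools (adjusted p = 0.235) and 1.03 without control replicate 1 (adjusted p = 0.0322). Signals of this gene were near the filter, so that the pseudocount mattered, and at a pseudocount of 64 the difference was 0.27. Shmt2, which passes the carbon of serine to mitochondrial folate, had signals of 128, 125, 115, 136 and 98.8 in the dehydrated pools, against 109, 109, 110.1, 106 and 108 in the control pools. There were 4 dehydrated pools above the narrow range of the controls and 1 below it (log2 0.14 ± 0.09, adjusted p = 0.539). Got1, the cytosolic aspartate aminotransferase, and Aldh18a1, which starts proline synthesis, differed by -0.08 ± 0.08 and 0.05 ± 0.09. The median over the 8 enzymes was 0.10, with 6 positive.

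**Figure D4:**
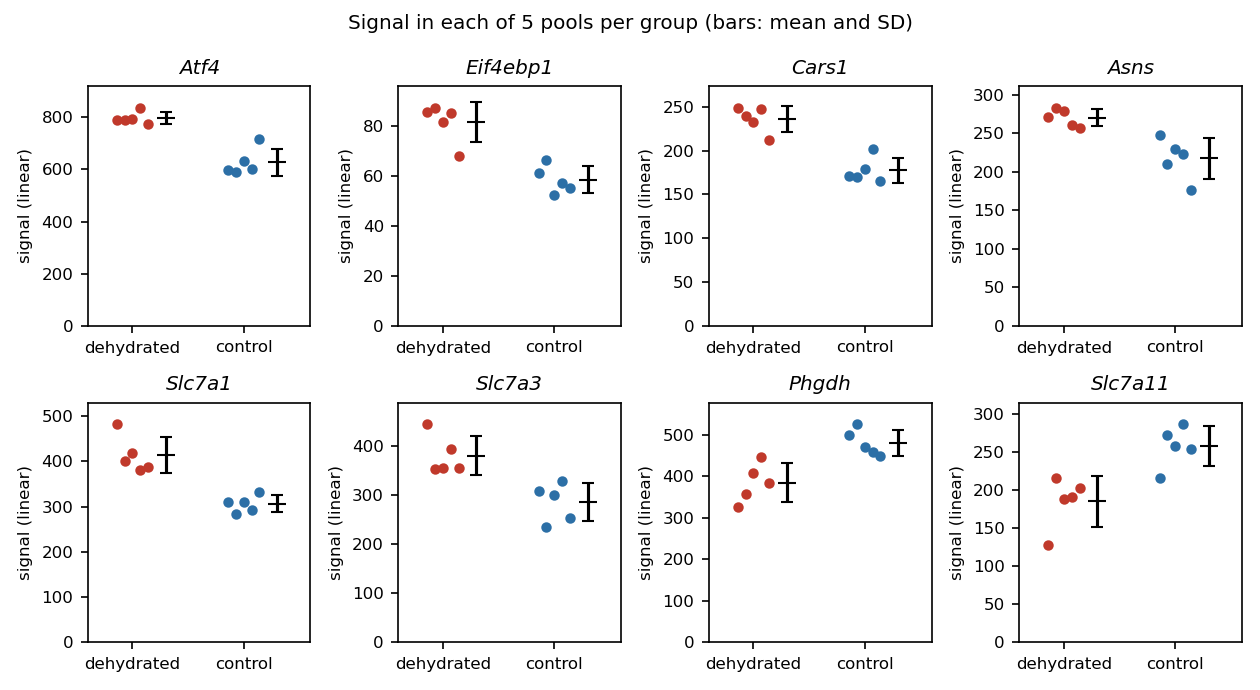
Linear signals of 8 members in each of the 5 dehydrated pools (left in each panel) and 5 control pools (right), with mean and SD beside the points and axes that start at 0. Dehydrated points lie above all control points for Atf4, Eif4ebp1, Cars1, Asns, Slc7a1 and Slc7a3, and below all of them for Phgdh and Slc7a11.

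Of the carriers, Slc7a1 rose, the widely expressed transporter of arginine, lysine and ornithine. It had signals of 482, 402, 418, 381 and 388 in the dehydrated pools, against 311, 285, 310.0, 292 and 333 in the control pools. Every dehydrated pool was above every control, dehydrated replicate 1 by most, and means were 414 ± 40.5 in dehydrated and 306 ± 18.7 in control pools (SD, n = 5 each), which on the log2 scale differed by 0.43 ± 0.07 or 34.6% (adjusted p = 0.012). A second probe set had signals of 178, 141, 204, 193 and 204 in the dehydrated pools, against 138, 139, 138, 105 and 126 in the control pools. It separated the groups too, with 0.49 ± 0.11 (adjusted p = 0.0506). The call held with each array left out in turn (adjusted p from 0.00621 to 0.0454) and was lost without the variance trend (0.0717).

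Its relative Slc7a3, the cationic amino acid carrier of neurons, had signals of 444, 353, 356, 393 and 354 in the dehydrated pools, against 309, 235, 300.5, 329 and 254 in the control pools. The groups did not overlap and the log2 difference was 0.41 ± 0.09, close to that of Slc7a1 but over the threshold (adjusted p = 0.0623, and 0.0524 to 0.162 under other settings). In the same pools the summed signal of the 6 paraventricular marker genes was 9016 to 12153 in dehydrated and 7489 to 9978 in control pools. All 5 of the markers tested were positive, with a median log2 difference of 0.24, and 0 passed the threshold in limma. In that fit 2 of the 5 had an unadjusted p under 0.05, against 12.7% of all probe sets. Those were the genes of the 2 main peptide hormones, Avp with 0.50 ± 0.11 (adjusted p = 0.0504) and Oxt with 0.24 ± 0.08 (adjusted p = 0.218). With mean signals of 4244 and 4475 these 2 made up most of the sum. Their precursors are made in large amounts when water is short, so the sum cannot tell more paraventricular neurons from more RNA per neuron. The dimmer Crh, Trh and Sim1 differed by 0.19 ± 0.20, 0.08 ± 0.07 and 0.35 ± 0.17 (adjusted p = 0.726, 0.648 and 0.414). The part of the paraventricular neurons in the higher members was not tested.

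Slc7a11, which takes up cystine in exchange for glutamate, was the lowest of the carriers relative to control. Signals were 128, 215, 188, 190.4 and 203 in the dehydrated pools, against 216, 272, 258, 286 and 254 in the control pools. All dehydrated values were below all controls, by little between dehydrated replicate 2 and control replicate 1, and dehydrated replicate 1 was lowest (log2 -0.48 ± 0.12, adjusted p = 0.0808). With array weights the adjusted p was 0.0462. Slc7a11 and Phgdh are mainly astrocyte transcripts in brain. The 8 astrocyte markers summed to 13522 to 15107 in dehydrated and 13620 to 15240 in control pools, 3 of them positive and 5 negative, and none was at 0. In limma 0 passed and 3 had an unadjusted p under 0.05 (37.5%, against 12.7% of all probe sets). Of these 3, Gfap (log2 -0.38 ± 0.09, adjusted p = 0.0553) and Aqp4 (-0.16 ± 0.06) were lower and Aldoc (0.13 ± 0.06) was higher. Markers of oligodendrocytes were lower in the dehydrated pools, 6809 to 7036 against 7327 to 8853 in control pools over 9 genes. All 9 were negative and 1 passed the threshold, against 0.183% of all probe sets called lower. In limma 8 of the 9 had an unadjusted p under 0.05, against 12.7% of all probe sets. The groups did not overlap for 3 (33.3%), against 3.36%. The 4 markers of neighbouring hypothalamic regions summed to 3276 to 5932 in dehydrated and 4059 to 6914 in control pools. Most of that sum was Pmch, with a mean signal of 3912 and a log2 difference of 0.02 ± 0.11. The other 3 were negative, Hcrt (log2 -1.28 ± 0.44), Hdc (-0.67 ± 0.19) and Nkx2-1 (-0.50 ± 0.16), and the median of the 4 was -0.58. In limma 0 passed the threshold and these 3 had an unadjusted p under 0.05, against 12.7% of all probe sets. For Hdc all dehydrated pools lay below all controls. How much neighbouring tissue each pool held was not tested. The part of these cell types in the lower signals of Slc7a11 and Phgdh was not tested.

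Slc3a2, the heavy chain that brings several of these carriers to the membrane, had signals of 707, 719, 722, 708 and 738 in the dehydrated pools, against 590.2, 662, 623, 664 and 679 in the control pools. The groups did not overlap, with a small log2 difference of 0.16 ± 0.06 (adjusted p = 0.234). Among its light chains Slc7a5, an importer of large neutral amino acids, is described because 1 pool decided it, and was singled out after its values were seen. It had signals of 215, 184, 193, 179.6 and 202 in the dehydrated pools, against 131, 152, 150.5, 150.0 and 237 in the control pools. Control replicate 5 was the highest of all 10 pools and the other 4 controls were the lowest. With it the log2 difference was 0.27 ± 0.12 (adjusted p = 0.377), and without it 0.41 (adjusted p = 0.025). Endothelium, which also carries this importer, had marker sums of 1293 to 1430 in dehydrated and 1076 to 1482 in control pools over 7 genes. The highest control sum was again that of control replicate 5. Of the 7 genes 6 were positive, with a median log2 difference of 0.12, and 0 passed in limma. For 1 of them (14.3%, against 3.36% of all probe sets) the groups did not overlap. This was Slco1a4, higher in all dehydrated pools (log2 0.28 ± 0.07, adjusted p = 0.0919). The part of endothelium in Slc7a5 was not tested. The light chains Slc7a6 and Slc7a8 differed by -0.09 ± 0.09 and -0.18 ± 0.15.

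The remaining carriers did not pass the test. Slc38a1, a sodium-coupled glutamine carrier of neurons, had 869 to 1113 in dehydrated and 764 to 1039.7 in control pools (log2 0.09 ± 0.08). Slc38a3 and Slc6a9, carriers of glutamine and of glycine, differed by 0.04 ± 0.13 and 0.03 ± 0.12. A second probe set of Slc6a9 had the opposite sign, -0.22 ± 0.12 (adjusted p = 0.46). Of the 9 further probe sets of members that were tested, 7 had the sign of the one used, and the other two were this one and that of Wars1, at 0.03 ± 0.11. Slc1a4 and Slc1a5, exchangers of small neutral amino acids, differed by 0.09 ± 0.12 and -0.19 ± 0.19. In all, 1 of 12 carriers rose and 11 did not pass, and 5 had an unadjusted p under 0.05 (41.7%, against 12.7% of all probe sets). The median log2 difference was 0.06, which turned to -0.0148 without control replicate 1.

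**Figure D5:**
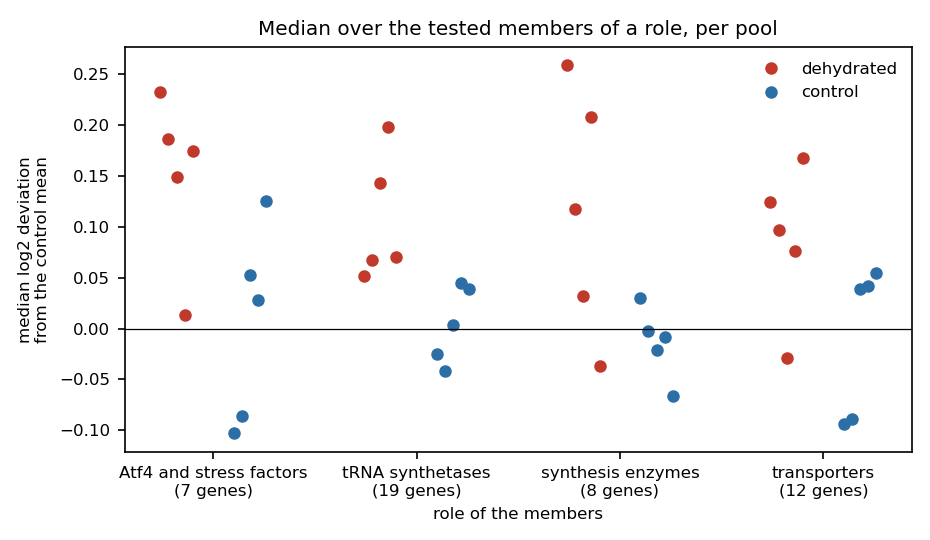
Median over the tested members of each role in every pool, as log2 deviation from the control mean, with dehydrated pools left of control pools within a role. The synthetase medians of the dehydrated pools, 0.051 to 0.198, lie above those of the control pools, -0.042 to 0.044, and in the other 3 roles the groups overlap.

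The roles were set side by side through the median of their members in each pool. For the 19 synthetases it was 0.051 to 0.198 above the control mean in the dehydrated pools and -0.042 to 0.044 in the control pools, without overlap. For the stress factors it was 0.013 to 0.232 in dehydrated and -0.103 to 0.126 in control pools, for the enzymes -0.037 to 0.259 in dehydrated and -0.066 to 0.030 in control pools, and for the carriers -0.029 to 0.168 in dehydrated and -0.094 to 0.055 in control pools. These are descriptions of a chosen list and carry no test. In the other roles dehydrated replicate 4, 5 or 3 lay within the controls. Dehydrated replicate 4 held the highest value of its group for 20 of the 46 members, and control replicate 5 that of the controls for 16. The same was not counted over all probe sets, on which control replicate 5 also stood apart.

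Set against the promoter sequences shown above, the 11 tested members whose window held TGATGNAA had a median log2 difference of 0.13, with 9 positive and 2 called higher. The 28 whose window did not had a median of 0.06, with 19 positive and 1 called higher, Atf4 itself. In limma 4 of the 11 and 10 of the 28 had an unadjusted p under 0.05, against 12.7% of all probe sets. Whether the motif bears on the differences was not tested. The ranges overlapped, -0.08 to 0.43 with the motif and -0.48 to 0.75 without it. Slc7a1, Cars1 and Iars1 were at the top of the genes with the motif, and Yars1, Nars1 and Got1, whose windows hold the same TGATGCAA as that of Cars1, differed by 0.01, -0.0042 and -0.08.

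Other genes of the same pathways, outside the members, were taken from 4 lists. Of these 103, 93 had a probe set and 83 were tested, of which 0 were called higher and 1 lower, and 11 (13.3%) had an unadjusted p under 0.05, against 0.580% of all probe sets called and 12.7% under that p. The call was Glud1, the mitochondrial glutamate dehydrogenase. Its signals were 939, 1085, 994, 1025 and 1036 in the dehydrated pools, against 1310.3, 1171, 1216, 1236 and 1414 in the control pools, with no overlap, and the gene fell by 0.32 ± 0.06 on the log2 scale (adjusted p = 0.0236). A second probe set of Glud1 differed by -0.35 (adjusted p = 0.163). The call was lost without dehydrated replicate 1 (adjusted p = 0.0647), 3 (0.0712) or 4 (0.058) or control replicate 1 (0.0632), without a filter (0.064) and without the variance trend (0.129).

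Of 25 tested genes of eIF2, its kinases and phosphatases and further stress control, 14 were positive and 0 passed in limma, with 3 at an unadjusted p under 0.05. The smallest p was that of Eif4ebp2, a relative of Eif4ebp1, which had signals of 236, 252, 199, 202 and 238 in the dehydrated pools, against 261, 296, 305, 277 and 317 in the control pools, lower in all dehydrated pools (log2 -0.37 ± 0.08, adjusted p = 0.0565). The other two were higher. Chac1, an Atf4 target whose product breaks down glutathione, had signals of 219, 196, 202, 202 and 221 in the dehydrated pools, against 179.9, 193, 164, 157 and 163 in the control pools, and there all dehydrated pools lay above all controls (log2 0.28 ± 0.08, adjusted p = 0.132). Sesn3, a relative of Sesn2, differed by 0.29 ± 0.13 (adjusted p = 0.34). Of 15 mitochondrial synthetases and complex subunits 10 were positive and 0 passed, with 2 at an unadjusted p under 0.05, of which Nars2 had the smaller (log2 -0.31 ± 0.12, adjusted p = 0.313). Of 17 further carriers 11 were positive and 0 passed, with 1 at an unadjusted p under 0.05, that of Slc38a2, the glutamine carrier induced by amino acid shortage (log2 0.21 ± 0.08, adjusted p = 0.267). Of 26 further enzymes 13 were positive, and the 5 at an unadjusted p under 0.05, Glud1 among them, were all lower. In the 4 lists in turn, 12.0%, 13.3%, 5.88% and 19.2% of the genes tested were under that p. Over all probe sets it was 12.7%, a share that was not split by direction.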

How the data were processed

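Probe set signals of 10 arrays were used as the authors deposited them: linear intensities made with GCOS 1.2, per the submitters' processing notes, with the signal algorithm and detection calls not given in the sources used here. They had been scaled to a common level per array (mean of 100.03 after trimming 2% at each end). No array batch is labelled, so batch and group cannot be told apart, and the number of arrays limits the precision. Of 31099 probe sets, 57 controls were left out, and 20826 had 1 symbol in the platform annotation, 20758 of them updated through Entrez identifiers. Signals were tested as log2(signal + 3.72), 0.1 of the median array median, with lmFit and eBayes with a trend (limma 3.58.1, R 4.3.3), as a two-sided test at an adjusted p of 0.05. Simulated arrays built from these 18629 probe sets gave calls for 26.2%, 71.6% and 97.2% of true log2 differences of 0.35, 0.7 and 1.4. The members and lists were chosen with earlier results of these data known. Values in every pool are given for members past the threshold and the 4 smallest p of each role. Groups came from the sample labels, and replicates were numbered in accession order. Alternatives were other scalings, pseudocounts, filters and variance models, array weights, each array left out, and other probe sets. Promoter sequences are those of RefSeq, build GRCr8, and the matches of 1 member are not reported here.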

Additional observations from a re-analysis of the deposited data

Results flagged for a closer look

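Single pools stood apart from the other 4 of their group, by a gap test on the 5 signals, for 9 of the 92 member and group pairs tested, where chance gives about 1 in 20. Atf4 had 836 in dehydrated replicate 4, the highest, against 775 to 792 in the other dehydrated pools. Eif4ebp1 had 67.9 in dehydrated replicate 5, the lowest, against 81.7 to 87.2 in the other dehydrated pools. Eprs1 had 294 in control replicate 3, the highest, against 261 to 269.7 in the other control pools. Nars1 had 559 in control replicate 5, the highest, against 441 to 470.1 in the other control pools. Tars1 had 115 in control replicate 2, the lowest, against 137 to 145 in the other control pools. Psph had 54.8 in dehydrated replicate 5, the lowest, against 73.6 to 78.8 in the other dehydrated pools. Mthfd2 had 56.6 in control replicate 1, the highest, against 18.1 to 22 in the other control pools. Slc7a5 had 237 in control replicate 5, the highest, against 131 to 152 in the other control pools. Slc1a5 had 50.2 in dehydrated replicate 4, the highest, against 20.7 to 27.6 in the other dehydrated pools. Dehydrated replicates 4 and 5 and control replicate 5 accounted for 2 each of these. The causes were not tested.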

How the results depend on the processing

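Calls at these sizes were sensitive to single arrays and to the variance model. Slc7a1, Atf4 and Cars1 were the members called higher, 3 in all, under median centring, quantile normalization, pseudocounts of 4 times the first, 16 and 64, no filter, the 60th percentile filter and the robust fit. Without the variance trend the count was 0, with adjusted p of 0.0717 to 0.0951 for these 3 genes in limma, and with each array left out it ran from 1 (Slc7a1 alone, without dehydrated replicate 4 or control replicate 2) to 4. Array weights added Eif4ebp1 and gave 1 member lower, Slc7a11, where every array left out gave 0. All probe sets called numbered 108 in the fit as reported, 64 without a filter, 45 without the variance trend, 201 with array weights and 46 to 148 with an array left out. The median log2 difference of the stress factors was 0.09 as reported, 0.35 without a filter, which adds Trib3 and Atf3, 0.19 when the probe sets of each gene were averaged and 0.07 to 0.15 with an array left out. That of the synthetases was 0.12 as reported and 0.0524 with the same averaging, which brings in dim ones. That of the carriers was -0.0148 to 0.11 with an array left out. None of the 18 genes recomputed under these settings (the 16 members given with every pool, Slc7a5 and Glud1) changed direction. At a pseudocount of 64 the log2 differences of Eif4ebp1, Cebpb, Mthfd2 and Sesn2 shrank to 0.25, 0.24, 0.27 and -0.09. No paired analysis was possible because the labels give the pools no shared replicate numbers. A true log2 difference of 0.35 was called in 26.2% of simulated cases, so differences of this size can be missed with 5 pools a group. The changed probe sets were drawn from all 18629 tested, dim ones included, and the rate for the members themselves was not simulated.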
